A study of Mus musculus with 4 samples.

Results

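The 10 genes described here encode proteins that work with or alongside the H3K9 methyltransferase Setdb1 in chromatin silencing, namely Trim28, Atf7ip, Mphosph8, Pphln1, Morc2a, Cbx1, Cbx3, Cbx5, Dnmt1 and Uhrf1. They were chosen by name from their known roles, and a probe set was assigned to one of them where the platform annotation gave that gene as its single symbol. This gave 27 probe sets of the 45037 on the array that are not controls, and 10 of the 18193 genes with such a probe set. The cells were peritoneal macrophages elicited with thioglycollate, an irritant that draws monocytes into the peritoneal cavity, and they were used after attachment in culture. WT macrophages came from +/+:Setdb1 fl/fl mice and KO macrophages from LysM Cre/+:Setdb1 fl/fl mice, so that both genotypes carried the floxed Setdb1 allele. The labels give the strain as C57BL6/J. LysM Cre is active in myeloid cells, so other cells in the peritoneal exudate of KO mice are not the target of the deletion. Each genotype received vehicle or lipid A, the active component of LPS that signals through TLR4, for 4 h. The concentration of lipid A is 10 ng/ml in the series text and 10 ug/ml in the sample labels. The age of the mice and the number of mice behind an array are not given in the sources used here.

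There was 1 array for each of the 4 conditions. No difference therefore has a replicate check, and no p-value was computed. Each value below is a probe set signal, a brightness on a linear scale that the array scaling brought to the same trimmed mean on all 4 arrays. The median signal of an array was 65.1 with vehicle and 74.8 with lipid A in WT, and 84.2 and 75.8 in KO. A signal below the median of its array was taken as too close to background to measure a fold. Each gene is represented by its brightest probe set, and its other probe sets are given beside it. Where both arrays held them at or above the median, probe sets of one gene disagreed in their log2 difference by an SD of 0.39 for the lipid A response in WT and 0.46 for that in KO, and of 0.42 and 0.41 for KO over WT under vehicle and lipid A. This SD is a measure of technical spread only and says nothing of the spread between mice. Signals of different probe sets depend on their probes and are not compared with each other. Where 4 signals are given without further words, they stand in the order of vehicle and lipid A in WT, then vehicle and lipid A in KO.

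Setdb1 trimethylates lysine 9 of histone H3. Zinc finger proteins bound to DNA recruit it through the corepressor TRIM28 (KAP1), and ATF7IP, its binding partner, keeps it stable and in the nucleus. The HUSH complex, which holds TASOR, periphilin (Pphln1) and MPP8 (Mphosph8), a chromodomain protein that binds methylated H3K9, works with SETDB1 and the ATPase MORC2 to silence retroelements and genes within heterochromatin. The HP1 proteins HP1β (Cbx1), HP1γ (Cbx3) and HP1α (Cbx5) also bind methylated H3K9 and compact chromatin. DNMT1 copies DNA methylation onto the new strand at replication, and UHRF1, which binds hemimethylated DNA and methylated H3K9, brings it there.

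Atf7ip and Dnmt1 gave the clearest differences among the 10 genes. Atf7ip was higher in KO than in WT with and without lipid A, on both of its probe sets above background. Dnmt1 was lower after lipid A in both genotypes, on every probe set, and by more in KO. Trim28 and Pphln1, by their brightest probe sets, differed little between the genotypes. The promoters of Atf7ip and Dnmt1 are shown because these genes carry the main differences. They are the 250 bases before a RefSeq start in the GRCm38.p6 build, read 5′ to 3′ on the strand of the gene, with each CpG in capitals. RefSeq lists 1 start for Atf7ip, on the plus strand at chr6:136518601-136518850. For Dnmt1, on the minus strand, the windows at chr9:20952980-20953229 and chr9:20959889-20960138 are shown. The remaining one, at chr9:20952624-20952873, follows closely on another listed start and can hold exon sequence, coding sequence included. It is not printed although it is the richest in CpG of the Dnmt1 windows.
Atf7ip: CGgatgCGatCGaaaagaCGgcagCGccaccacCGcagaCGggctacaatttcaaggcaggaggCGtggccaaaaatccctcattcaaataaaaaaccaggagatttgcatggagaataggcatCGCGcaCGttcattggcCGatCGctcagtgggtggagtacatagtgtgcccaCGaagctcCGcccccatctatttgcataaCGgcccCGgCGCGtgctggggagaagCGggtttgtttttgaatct
Dnmt1, chr9:20952980-20953229: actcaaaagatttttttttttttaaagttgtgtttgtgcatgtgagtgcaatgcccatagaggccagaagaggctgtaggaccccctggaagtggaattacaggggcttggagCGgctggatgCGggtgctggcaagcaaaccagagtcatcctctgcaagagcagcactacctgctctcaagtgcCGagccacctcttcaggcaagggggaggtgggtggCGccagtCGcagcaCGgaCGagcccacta
Dnmt1, chr9:20959889-20960138: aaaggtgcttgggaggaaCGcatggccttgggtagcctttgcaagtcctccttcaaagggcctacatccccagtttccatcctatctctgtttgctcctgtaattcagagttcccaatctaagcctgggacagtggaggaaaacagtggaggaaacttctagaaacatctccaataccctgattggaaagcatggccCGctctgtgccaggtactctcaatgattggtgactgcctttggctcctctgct

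The Atf7ip window held 20 CpG, more than 82.1% of the 32851 windows of this length before RefSeq starts, which had a median of 6. The Dnmt1 windows shown held 7 and 2 CpG, and the one not shown held 26. Over all 10 genes, 17 windows held between 0 and 46 CpG. The windows were searched on both strands for the E2F motifs TTCCCGC and TTGGCGC, letters found before many genes of DNA replication. Neither was found in the windows of Atf7ip or Dnmt1, the one not printed included. Other forms of the E2F motif were not searched, so the absence of an E2F site cannot be read from this. Over all windows of this length, 5.62% held either motif, and among the 17 windows 3 did, one each of Cbx3, Trim28 and Uhrf1. A match or its absence describes the letters of these windows only.

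**Figure D1:**
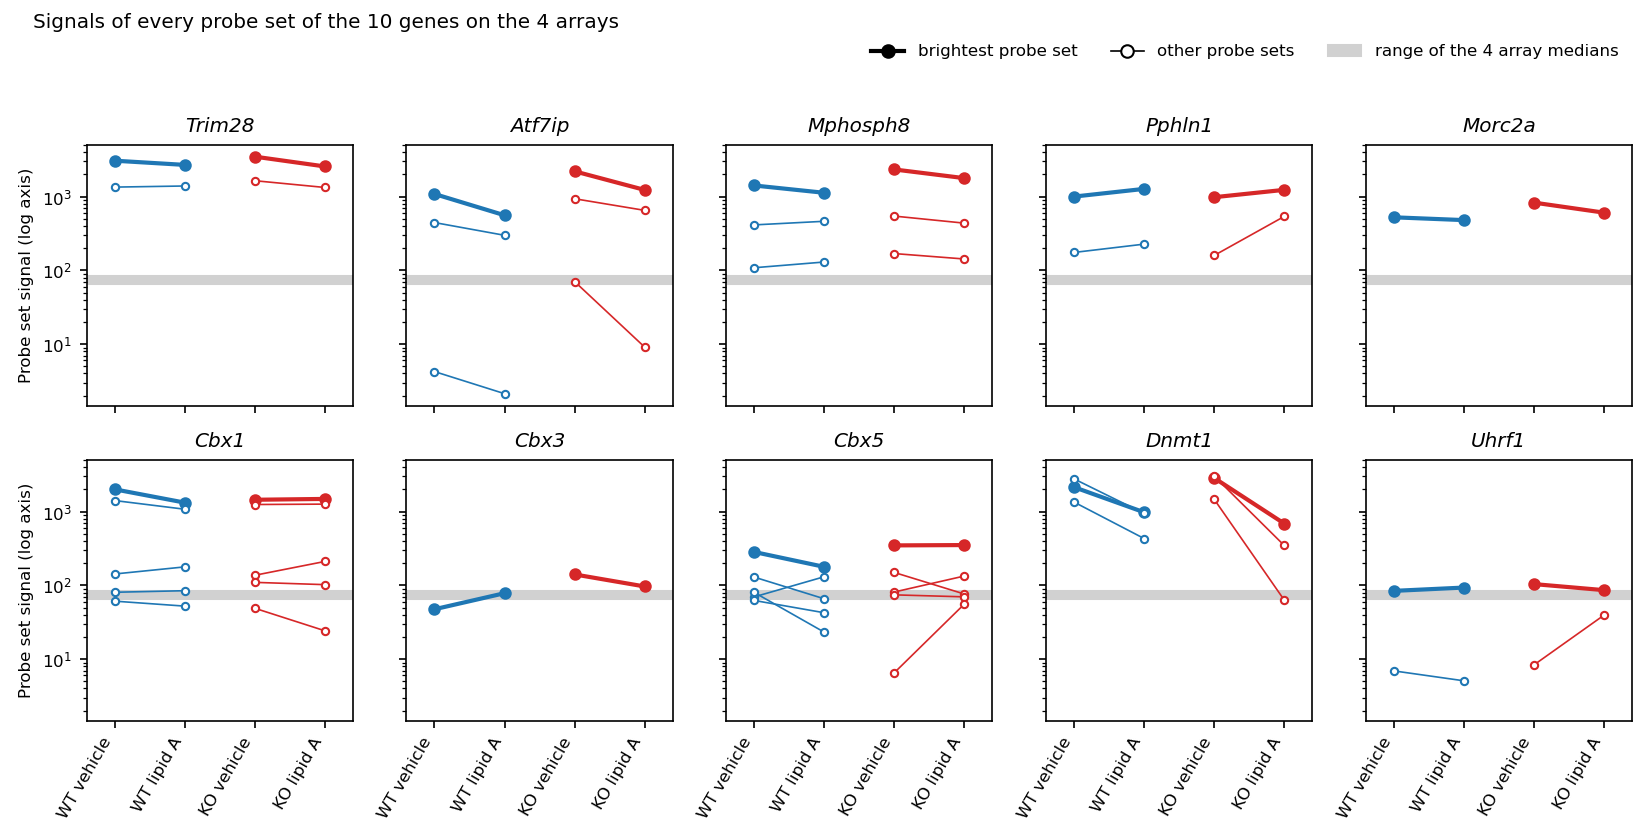
Signals of all 27 probe sets of the 10 genes on the 4 arrays, on a log axis, with WT in blue and KO in red. Thick lines and filled points are the brightest probe set of each gene, thin lines and open points its other probe sets, each point is 1 array, and the grey band spans the 4 array medians from 65.1 to 84.2. The probe sets of Dnmt1 slope down from vehicle to lipid A in both genotypes, and those of Atf7ip above the band lie higher in KO.

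Of the 27 probe sets, 18 lay at or above the array median on all 4 arrays, 5 on some arrays and 4 on none. Every gene but Cbx3 was represented by a probe set at or above the median on all 4 arrays. The 4 that were below the median throughout belonged to Atf7ip, Cbx1, Cbx5 and Uhrf1, genes that each had a brighter one.

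Setdb1 itself, the targeted gene, gave 589 with vehicle and 521 with lipid A in WT, and 346 and 386 in KO on the only probe set of it above background. It was thus 1.70-fold lower in KO under vehicle and 1.35-fold lower under lipid A. Its position with respect to the deleted exons is unknown here, and these signals therefore do not check the genotype labels.

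The arrays also differed in markers of other cell types and of macrophage subsets, and these values stand beside every comparison of KO with WT that follows. All 9 macrophage markers measured were at or above the median on all 4 arrays. Of 9 B cell markers, 5 and 3 were at or above the median in WT with vehicle and with lipid A, against 7 and 7 in KO, and their summed signal was 10261, 11869, 13117 and 17002. Most of that sum is Blnk, which macrophages also express. The defining marker Ms4a1 (CD20) gave 143, 130, 2399 and 2931 in the same order. Of 8 B cell markers detected under vehicle, 5 were over 2-fold higher in KO and 1, Fcer2a, was lower. Under lipid A, 5 of 7 were higher and 0 lower. Markers of resident large peritoneal macrophages were over 2-fold higher in KO for 7 of 8 detected under vehicle and again for 7 of 8 under lipid A. Their summed signal was 37657 with vehicle and 38892 with lipid A in WT, and 51968 and 56143 in KO, and Gata6, which defines these cells, gave 114, 26.9, 406 and 231. The 7 T and NK cell markers measured gave summed signals of 232, 397, 748 and 762, and 0, 2, 3 and 6 of them reached the median. The part of these cells in the differences between KO and WT was not tested. In a bulk sample, fewer cells of a type and less RNA per cell cannot be told apart.

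Counted over the 10 genes by their brightest probe sets, lipid A in WT was accompanied by 0 genes over 2-fold higher and 1 over 2-fold lower, Dnmt1. Over all 12129 genes detected in that comparison, 20.7% passed 2-fold, with 11.8% higher and 8.94% lower. In KO, 0 of the 10 were higher and 1, Dnmt1, was lower, beside 27.2% of 12293 detected genes past 2-fold, 11.2% higher and 16% lower. By sign alone, 7 of the 10 were lower in WT and 7 in KO. Their median log2 difference was -0.26 in WT and -0.42 in KO, beside -0.08 and -0.20 over all detected genes. The share of the 10 genes past 2-fold with lipid A was thus not above that of all genes. Dnmt1 had 7.36% of all detected genes below it in WT and 5.17% in KO, and Atf7ip 9.44% and 20.3%.

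Between the genotypes under vehicle, 2 of the 10 genes were over 2-fold higher in KO and 0 lower, the 2 being Atf7ip and Cbx3, beside 17.3% of 12002 detected genes past 2-fold, 11.1% higher and 6.17% lower. Cbx3 is counted on a dim probe set whose WT vehicle signal lay below the array median. Under lipid A, 1 was higher, Atf7ip, and 0 lower, beside 20.9% of 12335 genes, 10.6% higher and 10.3% lower. At 3-fold, the threshold of the methods between KO and WT, 0 of the 10 passed under either treatment, beside 9.93% of all genes under vehicle and 12.1% under lipid A. By sign, 8 of the 10 were higher in KO under vehicle and 6 under lipid A. Their median log2 difference was 0.36 under vehicle and 0.24 under lipid A, beside 0.10 and -0.01 over all detected genes. With the arrays centred on their medians the vehicle value was -0.01, beside -0.27 over all genes. The lipid A response in WT and the comparison of KO with WT under vehicle share the WT vehicle array, and the other pairs of a response and a genotype comparison share an array in the same way.

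**Figure D2:**
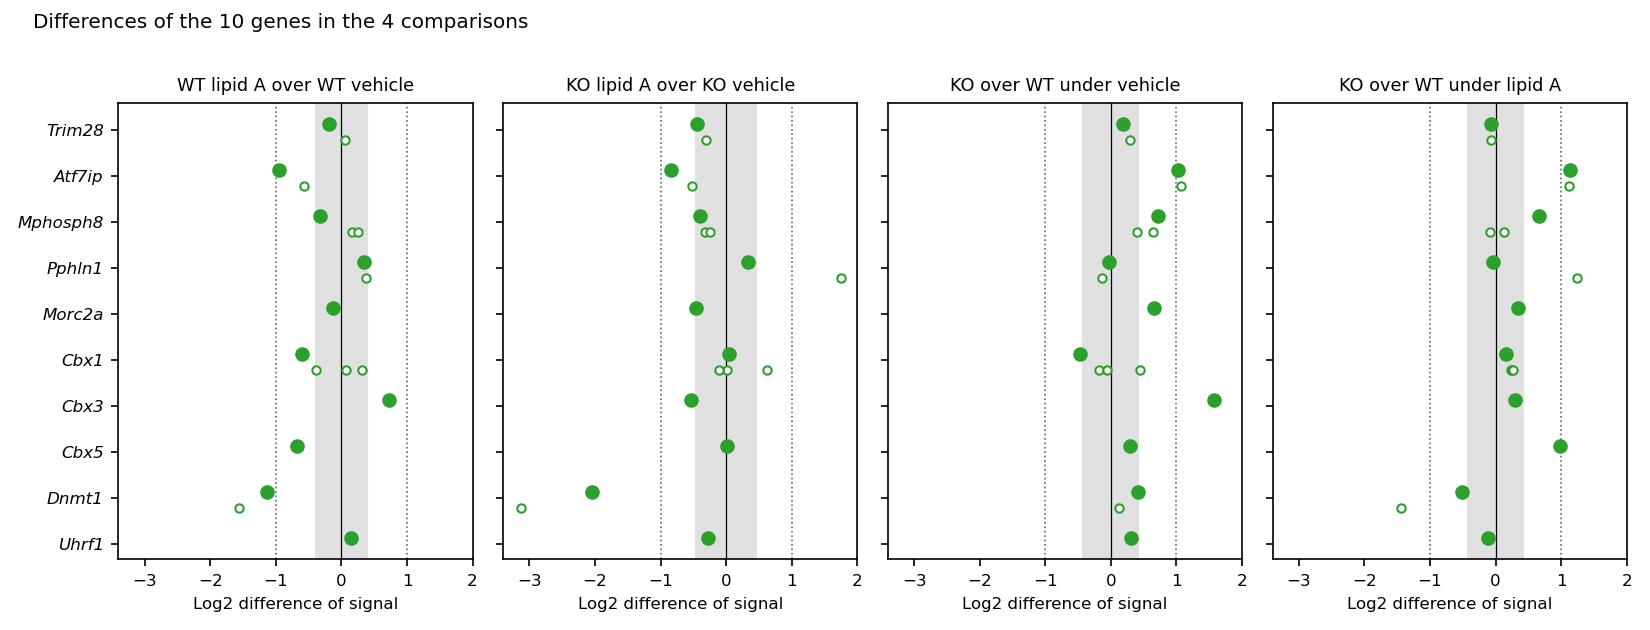
Log2 differences of the 10 genes in the 4 comparisons, one panel each, with filled points for the brightest probe set and open points for other probe sets at or above the array median on all 4 arrays. Grey bands are plus and minus 1 technical SD (0.39, 0.46, 0.42 and 0.41 from left to right) and dotted lines mark 2-fold. Dnmt1 lies beyond 2-fold on the left in both lipid A responses, and Atf7ip just beyond it on the right in both comparisons of KO with WT.

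Atf7ip is the gene whose product stabilizes SETDB1. Its brightest probe set, 1454973_at, gave 1086 with vehicle and 559 with lipid A in WT, and 2205 and 1233 in KO. Another, 1449192_at, gave 445, 299, 936 and 652 in the same order. Both were highest in KO vehicle and lowest in WT lipid A, and on both the KO lipid A array lay above the WT vehicle array. KO macrophages were 2.03-fold higher than WT macrophages on 1454973_at under vehicle and 2.21-fold higher under lipid A. On 1449192_at the difference between the genotypes was 2.10-fold under vehicle and 2.18-fold under lipid A. These log2 differences, from 1.02 to 1.14, are larger than the technical SD, and the probe sets agree within it. Lipid A was accompanied by a lower signal in both genotypes, by 1.94-fold in WT and 1.79-fold in KO on 1454973_at. The corresponding values on 1449192_at were 1.49-fold and 1.44-fold. The difference of the log2 response, KO minus WT, was 0.12 on the brighter probe set and 0.05 on the other, below the technical SD of a single response. A remaining probe set, 1446323_at, stayed below the array median on all arrays and measures no fold.

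The vehicle arrays differed most in scale. The array median was 0.37 higher on the log2 scale in KO vehicle than in WT vehicle, although the trimmed means were equal. With each array centred on its median, the Atf7ip log2 difference under vehicle was 0.65 in place of 1.02, which is below 2-fold, and that under lipid A was 1.12. Quantile normalization gave 1.08 under vehicle and 1.13 under lipid A. Centring moved the median of all detected genes under vehicle to -0.27. As deposited, 89.2% of all detected genes lay below Atf7ip under vehicle and 90.8% under lipid A.

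Trim28, whose product brings SETDB1 to its targets, differed little between the arrays. Its brightest probe set, 1456308_x_at, gave 3070 with vehicle and 2694 with lipid A in WT, and 3484 and 2567 in KO. The other, 1415869_a_at, gave 1346, 1394, 1644 and 1332. The 4 signals of each probe set lay close together, and the largest log2 difference in any comparison was -0.44, for lipid A in KO, which is below the technical SD of 0.46.

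Among the HUSH genes, Mphosph8 and Morc2a had higher signals in KO than in WT, by less than 2-fold. The brightest probe set of Mphosph8, whose product reads methylated H3K9, is 1418388_s_at. It gave 1416 with vehicle and 1127 with lipid A in WT, and 2335 and 1781 in KO, so that both KO arrays lay above both WT arrays. The difference between the genotypes was 1.65-fold under vehicle and 1.58-fold under lipid A. The dimmer probe sets of Mphosph8 gave 414, 463, 545 and 437 on 1418387_at, and 109, 130, 169 and 143 on 1427524_a_at. They were higher in KO under vehicle as well, with log2 differences of 0.40 and 0.64, the smaller of them within the technical SD. Under lipid A they differed by -0.08 and 0.14, within the technical SD, so the difference under lipid A rests on 1 of the 3 probe sets.

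Morc2a, which encodes an ATPase that compacts chromatin with HUSH, has 1 probe set. It gave 524 with vehicle and 481 with lipid A in WT, and 830 and 607 in KO. Again both KO arrays were above both WT arrays, by 1.58-fold under vehicle and 1.26-fold under lipid A. The log2 difference of 0.66 under vehicle was larger than the technical SD and that of 0.34 under lipid A was not. Centred on the array medians, the vehicle differences of Mphosph8 and Morc2a were 0.35 and 0.29, inside the technical SD of 0.42.

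The probe sets of Pphln1, the gene of periphilin, disagreed. The brightest, 1434822_at, gave 1001 with vehicle and 1273 with lipid A in WT, and 982 and 1236 in KO, which is close to the same response in both genotypes, with log2 differences of 0.35 and 0.33. The dimmer 1435766_at gave 175, 227, 159 and 538, with the KO lipid A array standing apart from the others. On that probe set the signal with lipid A was 3.38-fold higher in KO, beside a log2 difference of 0.37 in WT, and KO was 2.37-fold above WT under lipid A. Which of the 2 probe sets follows the transcript of periphilin was not tested.

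TASOR, the scaffold of HUSH, was followed through the list of other cofactors of Setdb1 and Trim28. Its gene Tasor gave 554 with vehicle and 349 with lipid A in WT, and 529 and 497 in KO. Of the 24 listed cofactors, 21 had a probe set and 19 were detected in each comparison. With lipid A, 2 were over 2-fold higher and 0 lower in WT, and 1 was higher and 0 lower in KO. Among all detected genes, 20.7% passed 2-fold in WT and 27.2% in KO. Daxx, a histone H3.3 chaperone, gave the largest difference of the list, at 454 with vehicle and 4145 with lipid A in WT, and 674 and 2933 in KO. With lipid A it was 9.12-fold higher in WT and 4.35-fold higher in KO. Tasor2, a paralog of Tasor, was 2.30-fold higher in WT after lipid A, from 575 to 1321, and went from 517 to 768 in KO. Between the genotypes, beside 17.3% and 20.9% of all detected genes, 0 of the 19 cofactors passed 2-fold under vehicle and 1 did under lipid A. That gene was Resf1, which encodes a retroelement silencing factor that binds SETDB1, at 2611, 3985, 4808 and 8164. Resf1 was 1.84-fold higher in KO under vehicle and 2.05-fold higher under lipid A on this probe set. Its other probe sets above background, 3 in number, differed less under lipid A, with log2 differences of 0.44, 0.78 and 0.75.

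The HP1 genes did not move together. Cbx1, encoding HP1β, gave 2006 with vehicle and 1325 with lipid A in WT, and 1449 and 1487 in KO on 1433718_a_at. The WT vehicle array was the highest and the other three lay within a narrow range. The log2 difference with lipid A was -0.60 in WT and 0.04 in KO, and that between KO and WT was -0.47 under vehicle and 0.17 under lipid A. On 1436266_x_at the signals were 1414, 1078, 1249 and 1264, with the same order of the arrays but smaller differences, of -0.39 with lipid A in WT and -0.18 between KO and WT under vehicle. The dimmer 1422935_x_at and 1431773_at, at 143, 178, 137 and 211 and at 80.7, 84.7, 110 and 102, did not have this pattern. All 4 probe sets above background were higher in KO under lipid A, by log2 differences of 0.17 to 0.27, each within the technical SD.

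Cbx5, encoding HP1α, gave 284 with vehicle and 178 with lipid A in WT, and 349 and 352 in KO on 1454636_at. The WT lipid A array was the lowest and the KO arrays were alike. Its log2 difference with lipid A was -0.67 in WT and 0.01 in KO, and KO was 1.98-fold above WT under lipid A, just short of 2-fold. The dimmer probe sets of Cbx5 lay close to the array medians and gave no common direction. With lipid A, 1450416_at went from 69.9 to 131 in WT and from 81.4 to 134 in KO, whereas 1421934_at went from 129 to 65.7 and from 150 to 76.3. Under lipid A, KO differed from WT by a log2 value of 0.03 on 1450416_at and was at least 1.02-fold higher on 1421934_at. The difference close to 2-fold between the genotypes thus rests on 1454636_at.

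Cbx3, encoding HP1γ, has 1 probe set of its own, 1432628_at, and it was dim, at 47.5 with vehicle and 78.3 with lipid A in WT, and 141 and 96.7 in KO. The WT vehicle signal was below its array median. KO was at least 2.16-fold higher than WT under vehicle, computed against that median, and 1.23-fold higher under lipid A. With lipid A the signal was at least 1.20-fold higher in WT and 1.46-fold lower in KO. The other 4 probe sets of Cbx3 also match the pseudogene Cbx3-ps5 in the annotation, so a signal cannot be given to either gene, and they are not counted among the 27. Of them, 1416884_at gave 3112 with vehicle and 1466 with lipid A in WT, and 3767 and 1028 in KO. On 1448504_a_at the signals were 3251, 1601, 3361 and 1183, and on 1439421_x_at they were 889, 423, 766 and 315. These shared probe sets were lower with lipid A in both genotypes, by 2.03-fold to 2.12-fold in WT and by 2.44-fold to 3.66-fold in KO. They thus went opposite to the probe set of Cbx3 alone in WT. Between KO and WT under vehicle, their log2 differences were 0.28 on 1416884_at, 0.05 on 1448504_a_at and -0.22 on 1439421_x_at. These lie within the technical SD, unlike the difference on the probe set of Cbx3 alone. The last shared one, 1454305_at, was above the array median on the KO lipid A array only, at 113.

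Of 15 genes listed as partners or readers next to HP1, 13 had a probe set and all 13 were detected in each comparison. With lipid A, 1 was over 2-fold higher and 2 lower in WT, and 2 were higher and 2 lower in KO. The shares of all detected genes past 2-fold were 20.7% and 27.2%. Sp100, a nuclear body protein that binds HP1, was 3.98-fold higher in WT and 2.83-fold higher in KO after lipid A, with 243 and 966 in WT and 219 and 621 in KO. Kmt5c, an H4K20 methyltransferase that HP1 recruits, was 2.81-fold lower with lipid A in KO, from 476 to 169, and went from 357 to 188 in WT. Incenp, a mitotic protein bound by HP1, was 2.24-fold lower in KO, from 2351 to 1050, and went from 2142 to 1293 in WT. The other genes past 2-fold, Sgo1 and Orc1, gave at most 126 on any array. Between the genotypes, 0 were higher and 1 lower under vehicle, and 2 were higher and 0 lower under lipid A, all of them Sgo1 or Orc1. The shares of all detected genes were 17.3% and 20.9%.

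Dnmt1, the maintenance DNA methyltransferase, had lower signals after lipid A on all 3 of its probe sets and in both genotypes. On 1422946_a_at it gave 2146 with vehicle and 980 with lipid A in WT, and 2861 and 690 in KO. On 1435122_x_at the signals were 2779, 946, 3034 and 348, and on 1447877_x_at they were 1347, 432, 1473 and 63.3. On each probe set both vehicle arrays lay above both lipid A arrays, and the KO lipid A array was the lowest. The signal was lower with lipid A by 2.19-fold in WT and 4.15-fold in KO on the brightest probe set. On 1435122_x_at it was lower by 2.94-fold in WT and 8.71-fold in KO. On 1447877_x_at the KO lipid A signal lay below its array median, so that the value in KO is at least 19.4-fold lower. The log2 response differed by -0.92 between KO and WT on the brightest probe set and by -1.57 on 1435122_x_at. Both differences exceed the technical SD of a single response, but the SD of a difference between responses was not computed. As deposited, the log2 responses on the brightest probe set were -1.13 in WT and -2.05 in KO. With each array centred on its median they lay closer together, at -1.33 and -1.90. Quantile normalization gave -1.09 and -2.02. The difference between the responses rests on 1 array per condition and was not tested. All 3 probe sets carry suffixes that the array maker gives to sets whose probes can match more than one transcript.

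Under vehicle, Dnmt1 differed between the genotypes by a log2 value of 0.42 on the brightest probe set and 0.13 on each of the others, none of them above the technical SD. Under lipid A, KO was 1.42-fold below WT on the brightest probe set, 2.72-fold below on 1435122_x_at and at least 5.70-fold below on 1447877_x_at. The probe sets thus shared a direction and differed widely in size.

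Uhrf1, the partner that brings DNMT1 to replicated DNA, was near background throughout, at 84.3 with vehicle and 93.4 with lipid A in WT, and 104 and 86.2 in KO. The 4 signals differed by log2 values of at most 0.31. Its other probe set was below the median on all arrays. So close to the median, a fall of Uhrf1 past 2-fold could not have been measured as a fold, whereas a rise could.

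**Figure D3:**
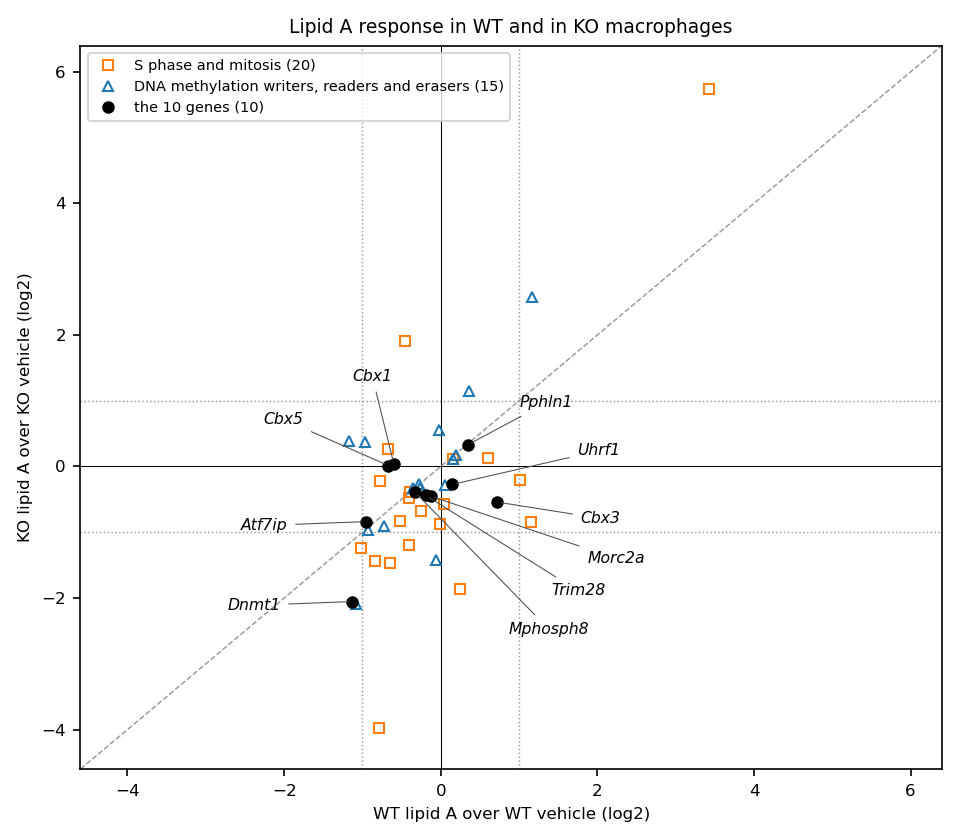
Lipid A response in KO against that in WT, as log2 differences, for the 10 genes (black) and the detected genes of the S phase and mitosis list (orange squares, 20) and the DNA methylation list (blue triangles, 15). The dashed line marks equal responses and dotted lines 2-fold. Values of signals below the array median are drawn as measured. Dnmt1 lies at -1.13 in WT and -2.05 in KO, next to a triangle, Dnmt3a, at -1.08 and -2.09.

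Other genes of DNA methylation were taken from a list of 22, of which 20 had a probe set. Lipid A was accompanied by 1 over 2-fold higher and 2 lower among 17 detected in WT, and by 2 higher and 2 lower among 17 in KO. Among all detected genes, 20.7% passed 2-fold in WT and 27.2% in KO, so the list did not stand out. Dnmt3a, a de novo DNA methyltransferase, gave values close to those of Dnmt1 in the plot of responses. It had 13896 with vehicle and 6573 with lipid A in WT, and 10005 and 2342 in KO on its brightest probe set, and was 2.11-fold lower with lipid A in WT and 4.27-fold lower in KO. All 5 of its probe sets were above background and lower with lipid A in both genotypes, and on all 5 KO lipid A was the lowest array. Dnmt3b gave between 99.5 and 121 on the 4 arrays. Uhrf2, the paralog of Uhrf1, was well above background on its brightest probe set, at 816, 496, 1436 and 768. It was 1.76-fold higher in KO than in WT under vehicle, while the log2 difference under lipid A was 0.63.

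Genes linked to removal of DNA methylation went in different directions. Gadd45b, a stress-induced gene, was 2.23-fold higher in WT and 5.94-fold higher in KO after lipid A, from 3521 to 7867 and from 2480 to 14737. Tet2, which oxidizes methylcytosine, went from 632 to 814 in WT and was 2.22-fold higher in KO, from 694 to 1543. Gadd45a was 2.25-fold lower with lipid A in WT, from 1019 to 453, and went from 828 to 1078 in KO. Apobec1, a cytidine deaminase, was 2.67-fold lower in KO, from 2495 to 934, with 1749 and 1682 in WT. Between the genotypes, 0 of 18 detected genes of the list were higher and 1 lower under vehicle, and 2 were higher and 2 lower under lipid A. The shares of all detected genes past 2-fold were 17.3% and 20.9%. The gene that was lower under vehicle was Hells, a chromatin remodeler needed for DNA methylation, at 286 in WT and 129 in KO. Under lipid A, Dnmt3a was 2.81-fold lower and Gadd45a 2.38-fold higher in KO.

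DNMT1 and UHRF1 act at the replication fork, and genes of S phase and mitosis were therefore set beside them. Of 36 listed, 34 had a probe set, and between 19 and 22 reached the array median on each array. Lipid A was accompanied by 3 over 2-fold higher and 2 lower among 22 detected in WT, and by 3 higher and 7 lower among 23 in KO. Among all detected genes, 20.7% passed 2-fold in WT and 27.2% in KO. The median log2 difference of the list was -0.40 in WT and -0.56 in KO, beside -0.08 and -0.20 over all detected genes. Mki67, a proliferation marker, went from 75.7 to 815 in WT, a 10.8-fold difference, and was at least 35.2-fold higher in KO at 2960, on its single probe set. Cdt1, a replication licensing factor, was 2.02-fold lower with lipid A in WT, from 3435 to 1700, and went from 5460 to 2321 in KO. Pcna, the sliding clamp of the replication fork, gave 12807 with vehicle and 14294 with lipid A in WT, and 20908 and 22689 in KO. In KO the genes over 2-fold lower with lipid A included several of DNA replication that were above background on all 4 arrays. Lig1, the replicative DNA ligase, was 3.65-fold lower in KO, from 657 to 180, and went from 381 to 452 in WT. Fen1, the flap endonuclease, was 2.76-fold lower in KO, and the helicase subunits Mcm7 and Mcm2 were 2.69-fold and 2.30-fold lower. Their log2 differences in WT were -0.64, -0.84 and -0.40. The other subunits of this helicase on the list did not pass 2-fold in KO. Their log2 differences there were -0.39 for Mcm3, -0.47 for Mcm5 and -0.68 for Mcm6, and Mcm4 went the other way at 0.27. Of the 3 genes that were higher in KO, Tk1 and E2f2 reached only 82.6 and 91.9 with lipid A, near the array median. The part of cell division in the signals of Dnmt1 was not tested.

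Of 6 H3K9 methyltransferases listed, Setdb1 included, 5 had a probe set. With lipid A, 1 of 4 detected passed 2-fold in WT and 0 of 5 in KO, and between the genotypes 0 of 4 passed under vehicle and 2 of 5 under lipid A. The shares of all detected genes in the same order were 20.7%, 27.2%, 17.3% and 20.9%. Setdb2 was 3.94-fold higher with lipid A in WT, from 444 to 1753, and went from 402 to 745 in KO, which left KO 2.35-fold below WT under lipid A. Ehmt1 and Ehmt2, the genes of GLP and G9a, differed by less than 2-fold in every comparison. Suv39h2, the other gene past 2-fold between the genotypes, reached the array median only in KO with lipid A, at 78.8.

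**Figure D4:**
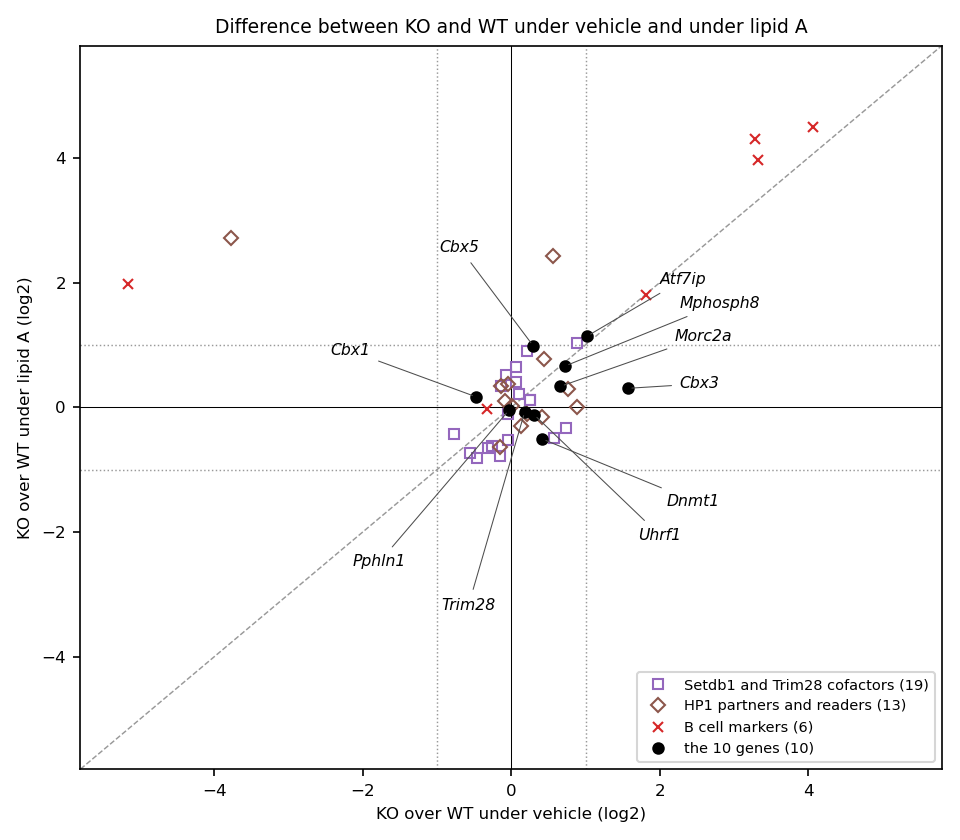
KO over WT under lipid A against KO over WT under vehicle, as log2 differences, for the 10 genes (black) and the detected genes of the lists of Setdb1 and Trim28 cofactors (purple squares, 19), HP1 partners (brown diamonds, 13) and B cell markers (red crosses, 6). The dashed line marks equal differences and dotted lines 2-fold, and values of signals below the array median are drawn as measured. Atf7ip lies past 2-fold on both axes at 1.02 and 1.14, while 4 B cell markers lie farther along the same diagonal.

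For the 3 genes past 2-fold in any comparison, the genes with the most similar pattern over the 4 arrays were found among 9047 genes at or above the median on all arrays. Likeness was the Euclidean distance between log2 signals, each taken relative to its own mean over the 4 arrays. Nearest to Atf7ip was Cytip, an adaptor of leukocyte adhesion, at a distance of 0.13, which gave 763 with vehicle and 401 with lipid A in WT, and 1611 and 976 in KO. Ralgapa2 and Inafm1 followed at 0.17 and 0.21. Nearest to Dnmt1 was Fam168a at 0.07, with 765, 347, 970 and 235 in the same order, and Snx24 and Stard9 followed at 0.12 and 0.14. Nearest to Cbx3 were Nrp at 0.14, 4931429L15Rik at 0.16 and Zap70, a T cell kinase, at 0.19, where the WT vehicle signal of Cbx3 lay below its array median. With 4 arrays, such a match describes the order and spacing of 4 values.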

How the data were processed

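Gene expression was measured on Affymetrix mouse expression arrays, 1 for each of the 4 conditions, and groups were taken from the sample labels. The authors deposited a table of probe set values as linear signal intensity, and every array had the same mean of 500.004 once the top and bottom 2% of values were trimmed, so a global scaling was inferred. The software and its version are not given in the sources used here, and detection calls were not used. After 64 controls were removed from 45101 probe sets, 45037 remained. The platform annotation gave 34945 of them a single symbol, 932 several and 9160 none, and 34741 of those with a single symbol matched a RefSeq gene number.

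Signals were taken as deposited and compared on the log2 scale. The brightest probe set by mean log2 signal represented a gene. A gene was detected in a comparison when its higher signal reached the median of that array, and it was counted when it also differed by over 2-fold. A fold is given as measured when both signals reached their array medians and otherwise as a lower bound against the median. Technical spread was computed over 4371, 4267, 4413 and 4260 genes with several probe sets at or above the median on both arrays. When only the higher array had to reach it, the SD was between 0.92 and 1.05, so the smaller SD does not describe dim probe sets. The ratio of the 3' to the 5' control of actin, a sign of RNA integrity, lay between 1.79 and 2.19, and that of Gapdh between 0.945 and 1.35. The number of arrays limits the precision.

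The 10 genes and the 12 other lists, with 175 distinct genes, were chosen with earlier results of these data known. Named from a list are at most 4 detected genes with the largest absolute log2 difference in the comparison described, all probe sets of the 10 genes, Setdb1, the H3K9 methyltransferases, and the 3 nearest genes of each of the 10 that passed 2-fold. Tasor, Dnmt3b, Pcna, Lig1, Fen1, Mcm7, Mcm2, Mcm3, Mcm4, Mcm5, Mcm6 and Blnk were named outside this rule, after their values were seen. The alternatives were centring on array medians, quantile normalization, a floor at the median, the median over a gene's probe sets or sets without a suffix, stricter or no detection, and 1.5-fold or 3-fold. The calling step was also run on simulated signals with folds set in advance, which checks the code and not these calls. Tools were Python 3.11.15, numpy 2.4.6, pandas 2.3.3, SciPy 1.17.1 and, for plots, matplotlib 3.10.9.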

Additional observations from a re-analysis of the deposited data

Results flagged for a closer look

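Cbx3 gave opposite responses to lipid A in the 2 genotypes on its only probe set of its own. The log2 difference was 0.72 in WT and -0.54 in KO, so that the response in KO minus that in WT was -1.26. The difference was not tested, since each condition has 1 array. The WT vehicle signal of 47.5 lay below the array median of 65.1, and with that median in its place the difference in WT is 1.20-fold. Where only the higher array has to reach its median, the technical SD of the WT response is 0.94, above the 0.72 of Cbx3.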

How the results depend on the processing

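The count of the 10 genes past 2-fold was 1 for lipid A in WT, 1 for lipid A in KO, 2 for KO over WT under vehicle and 1 under lipid A. With the arrays centred on their medians it was 2 for lipid A in WT, where Atf7ip joined Dnmt1, and 1 under vehicle, where Atf7ip was lost. Of all detected genes, 21.9% and 17.9% then passed. With the median over the probe sets of a gene it was 2 for lipid A in KO, where Pphln1 joined, and 2 for KO over WT under lipid A, where Dnmt1 joined. The shares of all detected genes were then 29% and 22.8%. With both arrays required to reach their median it was 1 under vehicle, where Cbx3 was lost, beside 5.56% of all genes. At 1.5-fold the counts were 5, 2, 4 and 3, beside 37.1%, 47.3%, 31.3% and 36.9% of all detected genes. At 3-fold they were 0 for lipid A in WT, 0 under vehicle and 0 under lipid A, beside 11.5%, 9.93% and 12.1%. Without a detection filter the counts could not change, because all 10 genes were already detected in every comparison. Quantile normalization and the floor left the counts as they were. So did probe sets without a suffix, but Dnmt1 and Trim28 have none and kept their probe sets, so this alternative does not bear on the lipid A counts, whose call is Dnmt1. The median over the 10 genes moved by less than the technical SD in all 28 alternatives and changed sign in 1, KO over WT under vehicle with centred arrays. For centred arrays and for no detection filter, a move below the technical SD was fixed in advance, so these alternatives do not show stability. Of the 40 single log2 differences of the 10 genes, all 40 moved by less than the technical SD with centred arrays and with quantile normalization. With centred arrays this was fixed in advance. Centring shifts all genes of a comparison alike by the difference of the array medians, which is smaller than the technical SD in every comparison. The median over probe sets moved 11 by more, in Cbx1, Cbx5, Dnmt1, Mphosph8, Pphln1 and Uhrf1, probe sets without a suffix moved 4, in Cbx1 and Mphosph8, the only genes whose probe set it replaced, and the floor moved 2, both in Cbx3. No paired analysis was possible because each condition has 1 array and the labels give no replicate numbers, and no array could be left out for the same reason. Signals near the array medians, as for Uhrf1 and Cbx3, carry little information about a fold.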

Other observations

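The remaining lists describe the cells and the stimulus. Of 8 lipid A response genes, 7 were detected and 7 were over 2-fold higher with lipid A in each genotype. Cxcl10, a chemokine, was at least 291-fold higher in WT and at least 146-fold higher in KO, and Il6 was at least 64.5-fold and 263-fold higher. Under lipid A, 5 of the 7 were over 2-fold higher in KO than in WT and 0 lower, with Il1b at 42.2-fold, Il12b at 7.80-fold and Il6 at 6.78-fold.

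Of 9 neutrophil markers measured, 5, 4, 6 and 3 reached the array median with vehicle and lipid A in WT and then in KO, and their summed signal was 6275, 5049, 2442 and 2637. Mmp8, a granule protease, was 9.01-fold lower in KO than in WT under vehicle and 10.8-fold lower under lipid A. The list did not go one way. Of 7 detected under vehicle, 2 were over 2-fold higher in KO and 3 lower. Of 4 detected under lipid A, 1 was higher, Csf3r at 2.16-fold, and 2 were lower. Of 10 fibroblast and mesothelium markers, 6, 6, 5 and 5 reached the median, with summed signals of 1838, 1582, 954 and 803. Dcn (decorin) was 4.02-fold lower in KO under vehicle and 2.87-fold lower under lipid A. Of 7 detected under vehicle, 3 were over 2-fold lower in KO and 1 was higher. The higher one was Msln, a mesothelium marker, by at least 1.83-fold against the array median. Under lipid A, 4 of 7 were lower and 0 higher. Among the 9 macrophage markers, Adgre1 (F4/80) was 2.73-fold lower in KO under vehicle, and 0 passed 2-fold between the genotypes under lipid A.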
